A study of Homo sapiens with 44 samples.

Results

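The nuclear genes for the subunits of the mitochondrial respiratory chain and ATP synthase were examined in castration-resistant VCaP tumors given an antiandrogen or vehicle. Members were chosen by gene symbol alone: symbols of the NDUFA, NDUFB, NDUFC, NDUFS, NDUFV, SDH, UQCR, COX4 to COX8 and ATP5 families, and CYC1. Of 92 matching symbols 2 are pseudogenes and were left out, so that 90 of the 23368 genes in the table were members. By role, 36 belong to complex I, 4 to complex II, 10 to complex III, 19 to complex IV and 16 to complex V, and the other 5 are no subunit or are read-through loci. Enough counts for a test were found for 82 members.

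VCaP is a human prostate cancer line with an amplified androgen receptor gene and a fusion of TMPRSS2 and ERG. It was used at passage p61 and grown as a xenograft in athymic nude mice (HSD:Athymic Nude–Foxn1nu), which lack T cells and keep other host cells in the tumor. Every mouse in every arm was castrated, and dosing began once serum PSA had regained its level before castration. The arms were ARN-509 (apalutamide, 15 tumors, 20 mg/kg/day), enzalutamide (14 tumors, 20 mg/kg/day) and vehicle (15 tumors), each given by gavage for 4 weeks. Both drugs are antagonists of the androgen receptor. RNA of each tumor was sequenced without strand information. All tumors come from 1 cell line, so p-values measure the spread between tumors of that line.

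Complex I passes electrons from NADH to coenzyme Q, and complex II, which is also the succinate dehydrogenase of the citric acid cycle, passes them from succinate. Complex III moves them on to cytochrome c and complex IV to oxygen, and complex V uses the proton gradient so formed to make ATP. Complexes I, III, IV and V hold core subunits encoded by mitochondrial DNA, whereas complex II is wholly nuclear-encoded. Of the 13 mitochondrially encoded subunits, 0 are listed in the table, so these counts show the nuclear-encoded part of the chain.

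Transcription of these genes is known to draw on nuclear respiratory factor 1 (NRF1), on the ETS factor GABP and on YY1. Promoters of 300 bases (RefSeq, GRCh38.p14) were found for 71 of the 90 members and were searched on both strands for short core letters of their motifs, CATGCGC (NRF1), CCGGAAG (ETS) and AAGATGG (YY1). Matches of different motifs overlapped in 0 member promoters. The NRF1 letters occurred in 13 of 71 member promoters (18.3%) against 4.58% of 27303 promoters in all. The ETS letters occurred in 20 (28.2%) against 10.6%, and the YY1 letters in 18 (25.4%) against 6.04%. Median GC content was 60.3% in the 71 member promoters and 58.0% in all 27303, and its part in these shares was not tested. The 27303 promoters, 1 per gene symbol, were not limited to genes tested here, whereas 67 of the 71 belonged to tested members. Promoters of COX4I1 and COX4NB overlap, and the same ETS match counted for both. Stretches from 150 bases before to 10 after the annotated start are printed for members of each complex that return in the results below, with matches in capitals. For complex II a gene that fell under ARN-509 (SDHB) and a gene that did not pass the test (SDHD) are shown.
NDUFS3, complex I, chr11:47578924-47579083, plus strand: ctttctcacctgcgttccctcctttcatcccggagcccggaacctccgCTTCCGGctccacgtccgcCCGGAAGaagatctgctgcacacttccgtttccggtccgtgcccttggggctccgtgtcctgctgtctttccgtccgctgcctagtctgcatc
SDHB, complex II, chr1:17054023-17054182, minus strand: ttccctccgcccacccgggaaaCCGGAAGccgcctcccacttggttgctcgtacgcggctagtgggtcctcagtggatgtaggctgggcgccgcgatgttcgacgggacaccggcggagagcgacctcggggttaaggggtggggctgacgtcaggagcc
SDHD, complex II, chr11:112086723-112086882, plus strand: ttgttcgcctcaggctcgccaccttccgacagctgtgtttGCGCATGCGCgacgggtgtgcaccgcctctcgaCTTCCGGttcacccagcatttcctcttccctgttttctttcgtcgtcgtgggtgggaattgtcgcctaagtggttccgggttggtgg
UQCRQ, complex III, chr5:132866492-132866651, plus strand: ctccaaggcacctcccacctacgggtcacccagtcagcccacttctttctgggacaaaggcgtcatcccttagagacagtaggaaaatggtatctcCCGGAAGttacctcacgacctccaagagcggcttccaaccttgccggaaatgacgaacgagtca
COX5B, complex IV, chr2:97645912-97646071, plus strand: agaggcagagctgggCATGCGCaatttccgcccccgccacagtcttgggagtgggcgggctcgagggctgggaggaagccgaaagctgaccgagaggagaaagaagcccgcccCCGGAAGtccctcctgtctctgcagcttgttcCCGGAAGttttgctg
ATP5C1, complex V, chr10:7788027-7788186, plus strand: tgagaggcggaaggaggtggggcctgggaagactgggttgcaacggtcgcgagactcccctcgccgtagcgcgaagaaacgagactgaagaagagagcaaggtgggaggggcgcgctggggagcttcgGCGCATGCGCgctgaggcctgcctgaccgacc
NDUFS3 and COX5B each hold the ETS letters in 2 places, in NDUFS3 on opposite strands and in COX5B with 1 match across the start itself. SDHD and ATP5C1 hold the NRF1 letters on both strands in 1 stretch, and COX5B holds them on its own strand. Among tested members with a promoter, the ETS letters occurred in 14 of the 43 that fell under ARN-509 and in 6 of the 24 that did not pass the test. The NRF1 letters occurred in 10 of the 43 and in 3 of the 24, and the YY1 letters in 11 and 7. These matches are a description of letters and show no binding.

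Depth ran from 3377450 to 30125004 counts per library in 15 ARN-509, 13 enzalutamide and 15 vehicle libraries. Enzalutamide 4 held 80142 counts, 776 of them on members, and was left out. Vehicle 8 and vehicle 10 stood apart from the rest of their arm, as described below, and the counts of members called and the medians are given with and without them. Summed prostate epithelial markers had medians of 16266 CPM (counts scaled to library totals of equal size, after the TMM adjustment that aligns the typical gene between libraries) in ARN-509, 16400 in enzalutamide and 11609 in vehicle tumors, with 10 of 10 markers tested. The 7 lists of fibroblast, endothelial, leukocyte, erythrocyte, muscle, liver and fat markers had median sums between 0.914 and 18.3 CPM in every arm, no marker was at 0 in all libraries, and the highest sum was 623 CPM for liver markers in 1 enzalutamide library. The endothelial sum, over 5 markers of which 0 passed the filter, was 0.914 CPM in ARN-509 (0.21 to 1.67), 0.939 in enzalutamide (0.405 to 2.73) and 4.12 in vehicle tumors (1.995 to 6.69). VWF made most of that difference, with means of 0.222, 0.422 and 2.99 CPM in the same arms, PECAM1 had 0.646, 0.780 and 0.993, and TEK ran the other way at 0.0930, 0.113 and 0.0694. The part of host cells and of mouse reads in the members' counts was not tested. In bulk tumors, fewer cells of a type and less RNA per cell cannot be told apart.

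Members together made up a median of 0.874% of all counts in ARN-509 libraries (0.765 to 1.07%), 1.04% in enzalutamide libraries (0.857 to 1.17%) and 1.03% in vehicle libraries (0.747 to 1.53%). Levels between genes were compared as mean CPM per kilobase of transcript, where the length is that of 1 annotated transcript per gene. In vehicle tumors the median member level was 60.8 for complex I, 85.8 for complex II, 120.1 for complex III, 149.97 for complex IV and 189.7 for complex V, in order of rising level per kilobase. COX8A, a small nuclear subunit of complex IV, had the highest level of any tested member, at 824 CPM per kilobase in ARN-509, 1068 in enzalutamide and 1178 in vehicle tumors. ATP5B, now ATP5F1B, encodes the catalytic beta subunit of ATP synthase and had 542, 636 and 728 CPM per kilobase in the same arms. UQCRB, a subunit of complex III, had 571, 619 and 565 CPM per kilobase in ARN-509, enzalutamide and vehicle tumors, so that it stood above ATP5B in ARN-509 tumors and below it in both other arms. The lowest levels among tested members, at 0.591, 0.634 and 0.922 CPM per kilobase, were those of COX6B2, a testis form of a complex IV subunit. NDUFA9 and ATP5E also ranked low, but the transcripts used for their length (8363 and 1878 bases) are long for these genes, and their per-length levels are uncertain. ATP5E was also low before division by length, at 9.40 to 33.6 CPM in vehicle libraries, against 87.7 to 252 for ATP5D. The same lengths entered the removal of the length trend described below.

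**Figure D1:**
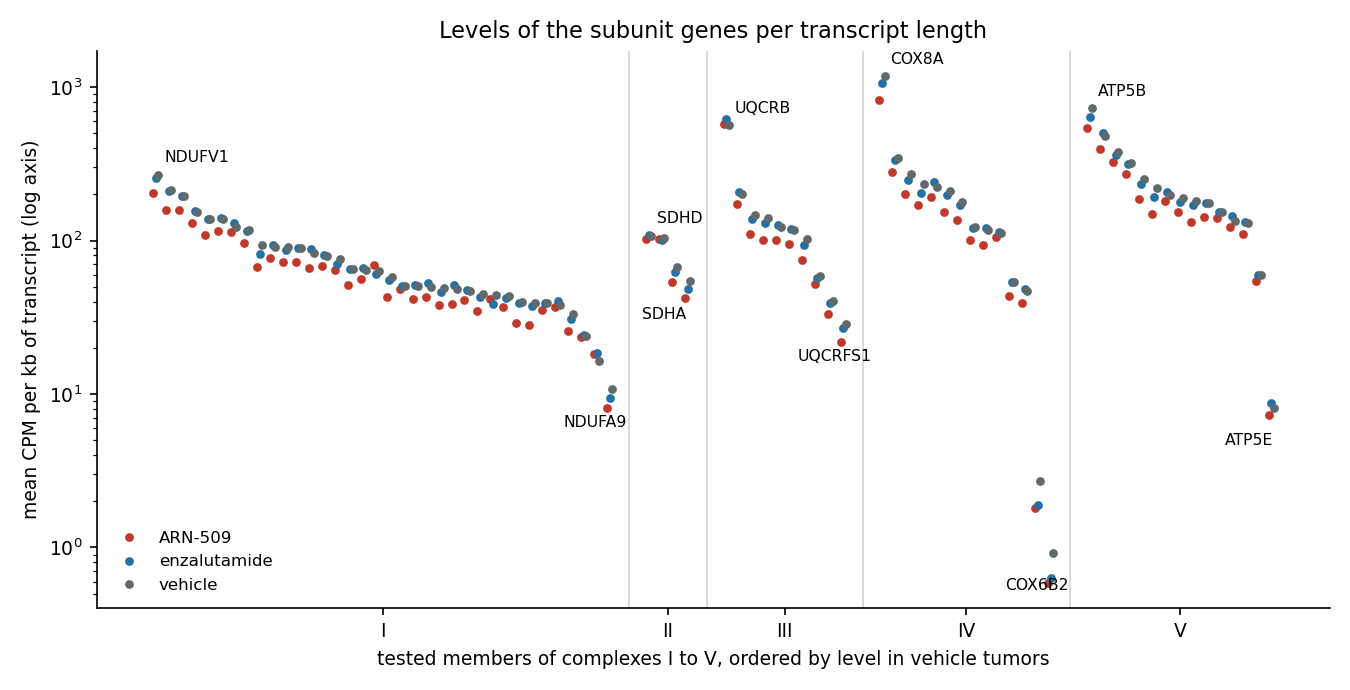
Mean CPM per kilobase of transcript (log axis) of each tested member of complexes I to V in ARN-509 (red), enzalutamide (blue) and vehicle tumors (gray), ordered within each complex by the level in vehicle tumors. COX8A is highest at 824, 1068 and 1178 in the 3 arms, and COX6B2 is lowest.

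Under ARN-509 some subunit genes of every complex were lower than under vehicle. Of the 82 tested members 51 fell, 0 rose and 31 did not pass the test (edgeR quasi-likelihood test, Benjamini-Hochberg adjusted p under 0.05 over all 13520 genes tested). Among all genes tested, 16.1% were called lower and 14.7% higher. The median log2 fold change of the members was -0.29, against -0.0011 for all genes tested, and 78 of the 82 values lay below 0. The falls were modest, from 10.3% to 36.9% with a median of 21.6%, and no member passed a 2-fold change. For no member did the range of ARN-509 libraries clear that of vehicle libraries, and over all genes tested 25 did (9 lower, 16 higher). Without vehicle 8 and vehicle 10, 48 members fell and the median was -0.23, where 30.3% of all genes were called in either direction. ATP5SL, COX6B2 and NDUFA2 were then no longer called. Leaving out each library in turn gave between 34 (without vehicle 8) and 59 (without vehicle 10) members lower, and 34 of the 51 were called in each of the 43 fits.

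Under enzalutamide no tested member passed the test against vehicle, with 0 of 82 by edgeR, against 5.10% of all genes tested called higher and 5.67% called lower. At an unadjusted p under 0.05 there were 6 of 82 members, against 3266 of all 13520 genes. DESeq2 called 0 members and 12% of all genes. By limma voom 3 members were called (NDUFC2 and ATP5SL higher, NDUFS1 lower), against 18.9% of all genes. The median log2 fold change was -0.0091 (-0.0040 for all genes), with 38 values above 0 and 44 below. Without vehicle 8 and vehicle 10 the count was also 0 (12.4% of all genes called), and the median was 0.03. For 80 of the 82 members the 95% interval lay within 1.5-fold in both directions. ATP5B was the member of complex V with the smallest p, at a log2 fold change of -0.19 (95% interval -0.35 to -0.04, adjusted p = 0.11).

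Enzalutamide tumors were higher than ARN-509 tumors in 47 of 82 members and lower in 0 by the same test, where 12.2% of all genes were called higher and 14.6% lower. The median was 0.27 (0.01 for all genes). Vehicle 8 and vehicle 10 belong to neither arm compared. Without them the count was 59 and the median 0.27, and 33% of 13472 genes tested were called in either direction. The count was 28 without enzalutamide 11 (20.9% of all genes called), 31 without enzalutamide 5 (21.4%) and 31 without ARN-509 14 (20.7%). The 3 comparisons share libraries in pairs, so they are not independent of each other.

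**Figure D2:**
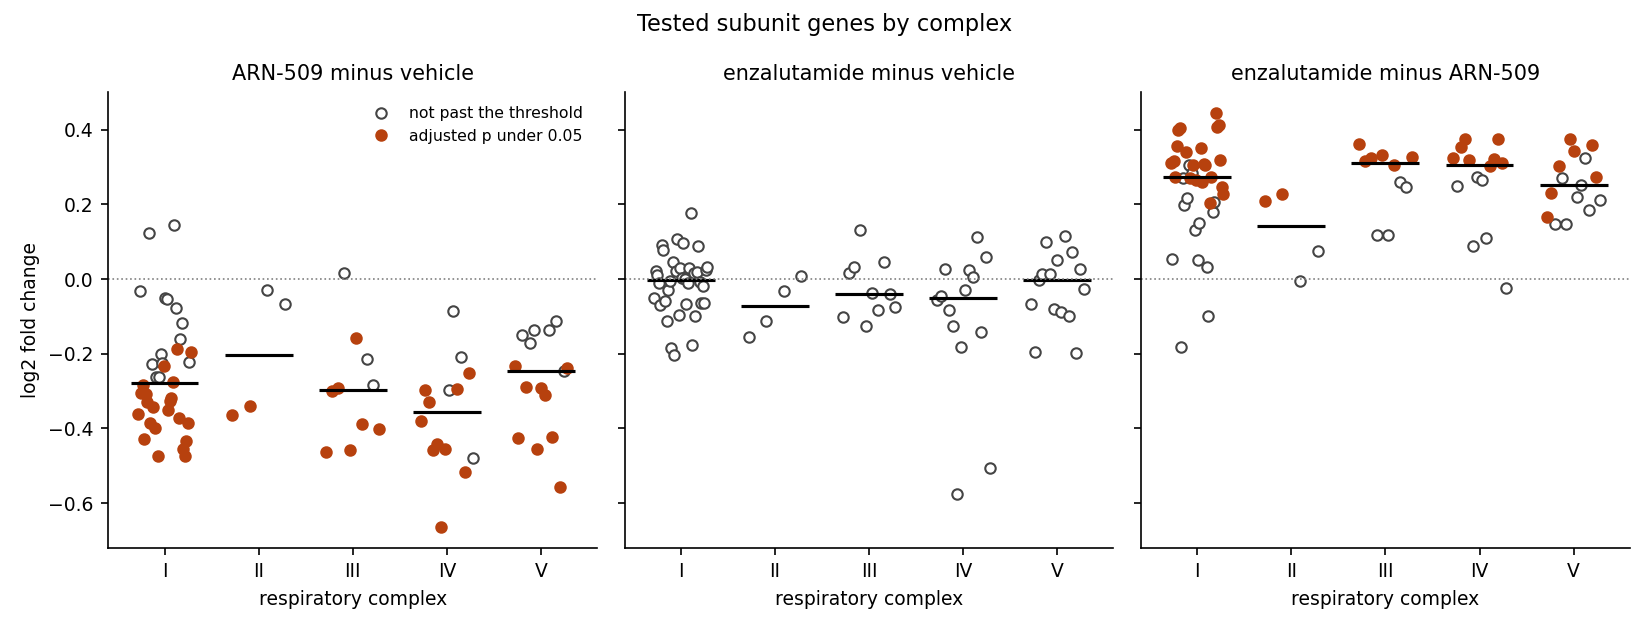
Log2 fold change of each tested member (points) in complexes I to V for ARN-509 minus vehicle, enzalutamide minus vehicle and enzalutamide minus ARN-509, with the median of each complex as a bar and members past the threshold filled. Medians lie between -0.35 and -0.20 on the left, between -0.07 and 0.00 in the middle and between 0.14 and 0.31 on the right.

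The same shift was visible tumor by tumor. The median over members of log2 CPM, taken relative to the mean of vehicle libraries, was -0.26 ± 0.17 in ARN-509 libraries (SD, n = 15; -0.51 to 0.04), 0.00 ± 0.20 in enzalutamide libraries (SD, n = 13; -0.31 to 0.24) and 0.01 ± 0.32 in vehicle libraries (SD, n = 15; -0.58 to 0.85). ARN-509 libraries lay below 0 in 14 of 15 cases, the exception being ARN-509 5 at 0.04, as against 6 of 13 enzalutamide and 7 of 15 vehicle libraries. The arms overlapped throughout. Vehicle 8 was the highest library of all at 0.85 and vehicle 10 the lowest of all at -0.58, and each deviated in its own direction in all 5 complexes. Vehicle 8 was the highest of all 43 libraries for 72 of the 82 tested members, and vehicle 10 the lowest vehicle library for 69. Their correlations with the mean of the other vehicle libraries, over 4713 genes with a mean of at least 50 CPM, were 0.889 and 0.916, against a median of 0.978 in the arm. The slope of gene level on transcript length in vehicle 8 was -0.25 log2 units per doubling of length, the lowest of its arm, and in vehicle 10 it was 0.20, the highest. The part of that length dependence in the spread of the members was not tested.

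**Figure D3:**
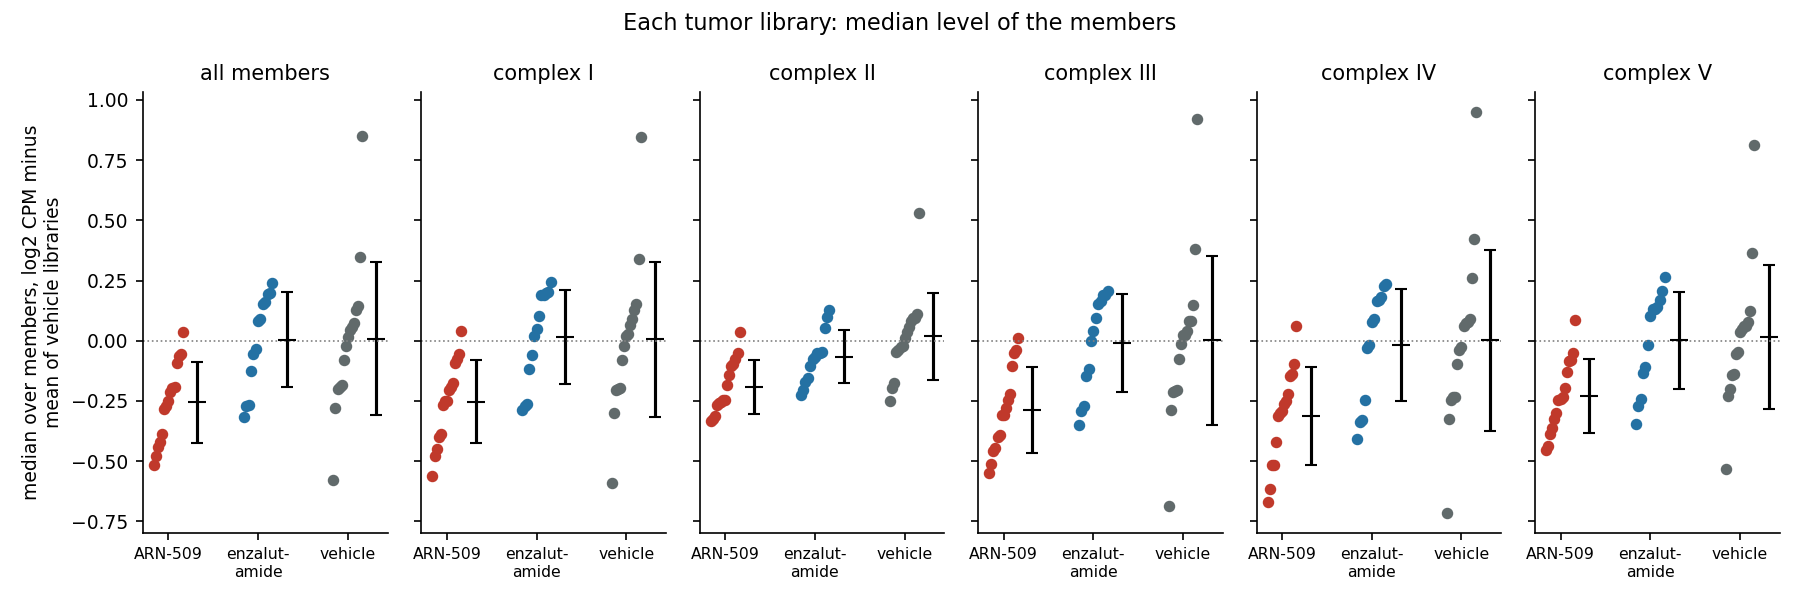
Median over members of log2 CPM minus the mean of vehicle libraries, for all members and for each complex, in each ARN-509 (n = 15), enzalutamide (n = 13) and vehicle (n = 15) library, drawn in rising order within an arm, with mean and SD at the right of each arm. In the panel of all members 14 of 15 ARN-509 libraries lie below 0, and vehicle 8 (0.85) and vehicle 10 (-0.58) lie outside the range of the other libraries.

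Complex I had 22 of 36 tested members lower under ARN-509 and 0 higher, with a median log2 fold change of -0.28. NDUFV1, which binds FMN and takes electrons from NADH, had 299 CPM in the median ARN-509 library (239 to 408), 397 in enzalutamide (315 to 452) and 384 in vehicle (304 to 651). It fell by 0.38 on the log2 scale (SE 0.08, adjusted p = 0.00032), was below the vehicle median in 14 of 15 ARN-509 libraries, and the arms overlapped. NDUFS8, an iron-sulfur subunit, had 123 CPM in ARN-509 (96.4 to 152), 170 in enzalutamide (130 to 201) and 158 in vehicle (99.1 to 348), with all 15 ARN-509 libraries under the vehicle median and a log2 difference of -0.43 (SE 0.11, adjusted p = 0.0029). NDUFS7, the subunit with the iron-sulfur cluster nearest to coenzyme Q, had a log2 difference of -0.47 (SE 0.11, adjusted p = 0.0014). NDUFS3, another core subunit, had a log2 fold change of -0.37 (adjusted p = 0.0046). NDUFV2 missed the threshold at -0.22 (adjusted p = 0.056).

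NDUFS1, the largest core subunit, did not follow these genes. It had 102 CPM in ARN-509 (76.0 to 135), 92.4 in enzalutamide (74.1 to 110) and 103 in vehicle (77.8 to 128), and its log2 fold change was -0.08 for ARN-509 (adjusted p = 0.37) and -0.18 for enzalutamide (adjusted p = 0.090). It was below the vehicle median in 8 of 15 ARN-509 and 12 of 13 enzalutamide libraries, and under enzalutamide it had the smallest p of complex I. It passed the threshold there, lower, by limma voom and without vehicle 8, vehicle 11 or enzalutamide 8.

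Among the accessory subunits, which surround the core and serve its assembly and stability, NDUFB10 fell most in complex I. It had 48.0 CPM in ARN-509 (35.3 to 59.6), 58.2 in enzalutamide (43.3 to 69.6) and 62.9 in vehicle (40.8 to 131), with a log2 difference of -0.48 (SE 0.10, adjusted p = 0.00055) and 15 of 15 ARN-509 libraries under the vehicle median. NDUFA9 changed by -0.40 (SE 0.08, adjusted p = 0.00031). At the other end, NDUFC2 had 32.6 CPM in ARN-509 (24.2 to 46.2), 35.4 in enzalutamide (27.5 to 44.9) and 30.7 in vehicle (19.0 to 45.8). Its log2 fold change of 0.14 (95% interval -0.05 to 0.33, adjusted p = 0.24) was the highest of all tested members. NDUFA5 followed with 0.12 (adjusted p = 0.31). Between the drugs, 22 of 36 members were higher in enzalutamide than in ARN-509 tumors, with the smallest p-values for NDUFV1 (log2 fold change 0.32, adjusted p = 0.0065), NDUFS6 (0.45, adjusted p = 0.0077) and NDUFA3 (0.41, adjusted p = 0.0083). With the trends of GC content and length removed, as described below, 6 of the 36 were called, and NDUFV1 lost its call (0.09, adjusted p = 0.15).

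In complex II the 2 catalytic subunits fell under ARN-509 and the 2 membrane subunits did not pass the test. SDHA, the flavoprotein that oxidises succinate, had 88.8 CPM in ARN-509 (80.0 to 109), 107 in enzalutamide (91.0 to 113) and 113 in vehicle (92.4 to 189). SDHB, the iron-sulfur subunit, had 59.9 CPM in ARN-509 (49.96 to 70.2), 70.5 in enzalutamide (59.8 to 85.1) and 75.7 in vehicle (51.0 to 130). Each lay under the vehicle median in 15 of 15 ARN-509 libraries. SDHA fell by 0.36 on the log2 scale (95% interval -0.50 to -0.23, adjusted p = 8.5e-05) and SDHB by 0.34 (95% interval -0.51 to -0.17, adjusted p = 0.0021). SDHC and SDHD, which anchor the enzyme in the inner membrane and bind coenzyme Q, did not pass the test. SDHC had 46.8 CPM in ARN-509 (42.7 to 56.1), 45.3 in enzalutamide (39.7 to 54.8) and 47.3 in vehicle (41.6 to 59.9), with a log2 fold change of -0.03 (95% interval -0.13 to 0.07). SDHD had 84.6 CPM in ARN-509 (75.2 to 108), 90.3 in enzalutamide (74.1 to 111) and 89.9 in vehicle (79.7 to 108), with a log2 fold change of -0.07 (95% interval -0.19 to 0.06). The intervals of SDHA and SDHC do not overlap, and no test of the difference between these genes was made. Enzalutamide tumors were higher than ARN-509 tumors in SDHA (log2 fold change 0.21, adjusted p = 0.027) and SDHB (0.23, adjusted p = 0.044), and both calls were lost with the GC and length trends removed (0.10, adjusted p = 0.26 and 0.14, adjusted p = 0.11).

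Complex III had 7 of 10 tested members lower under ARN-509, 0 higher and a median of -0.30. All 4 core members fell. UQCRC1, a large matrix-side core protein, had 147 CPM in ARN-509 (120 to 177), 184 in enzalutamide (150 to 222) and 189 in vehicle (152 to 371), with 15 of 15 ARN-509 libraries under the vehicle median and an adjusted p of 0.00013. CYC1, which carries the cytochrome c1 haem, had 121 CPM in ARN-509 (96.6 to 164), 162 in enzalutamide (127 to 193) and 159 in vehicle (102 to 270), with a log2 difference of -0.46 (SE 0.10, adjusted p = 0.00062). UQCRFS1, the Rieske iron-sulfur protein, fell by 0.39 (SE 0.11, adjusted p = 0.0049), and UQCRC2, the partner of UQCRC1, by 0.16 (SE 0.05, adjusted p = 0.0082). UQCRC2 was the least changed of the 4 and also the tightest within each arm, at 137 ± 8.94 CPM in ARN-509 (SD, n = 15), 149 ± 11.98 in enzalutamide (SD, n = 13) and 153 ± 12.5 in vehicle tumors (SD, n = 15). Of the small accessory subunits, UQCRQ fell by 0.40 (adjusted p = 0.0040), with 15 of 15 ARN-509 libraries under the vehicle median. UQCRB did not pass, at 317 CPM in ARN-509 (248 to 479), 376 in enzalutamide (260 to 586) and 334 in vehicle (236 to 512), a log2 fold change of 0.02 (adjusted p = 0.92). UQCRH, the hinge protein, and its near-identical copy UQCRHL could share reads and are uncertain, with log2 fold changes of -0.21 (adjusted p = 0.13) and -0.29 (adjusted p = 0.057). Enzalutamide exceeded ARN-509 in 6 of 10, with the smallest p-values for UQCRC1 (0.33, adjusted p = 0.0089), CYC1 (0.36, adjusted p = 0.012) and UQCR10 (0.32, adjusted p = 0.024). With the GC and length trends removed 2 of 10 were higher, and these 3 genes lost their calls (0.14, 0.11 and 0.14, adjusted p = 0.11, 0.31 and 0.11).

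**Figure D4:**
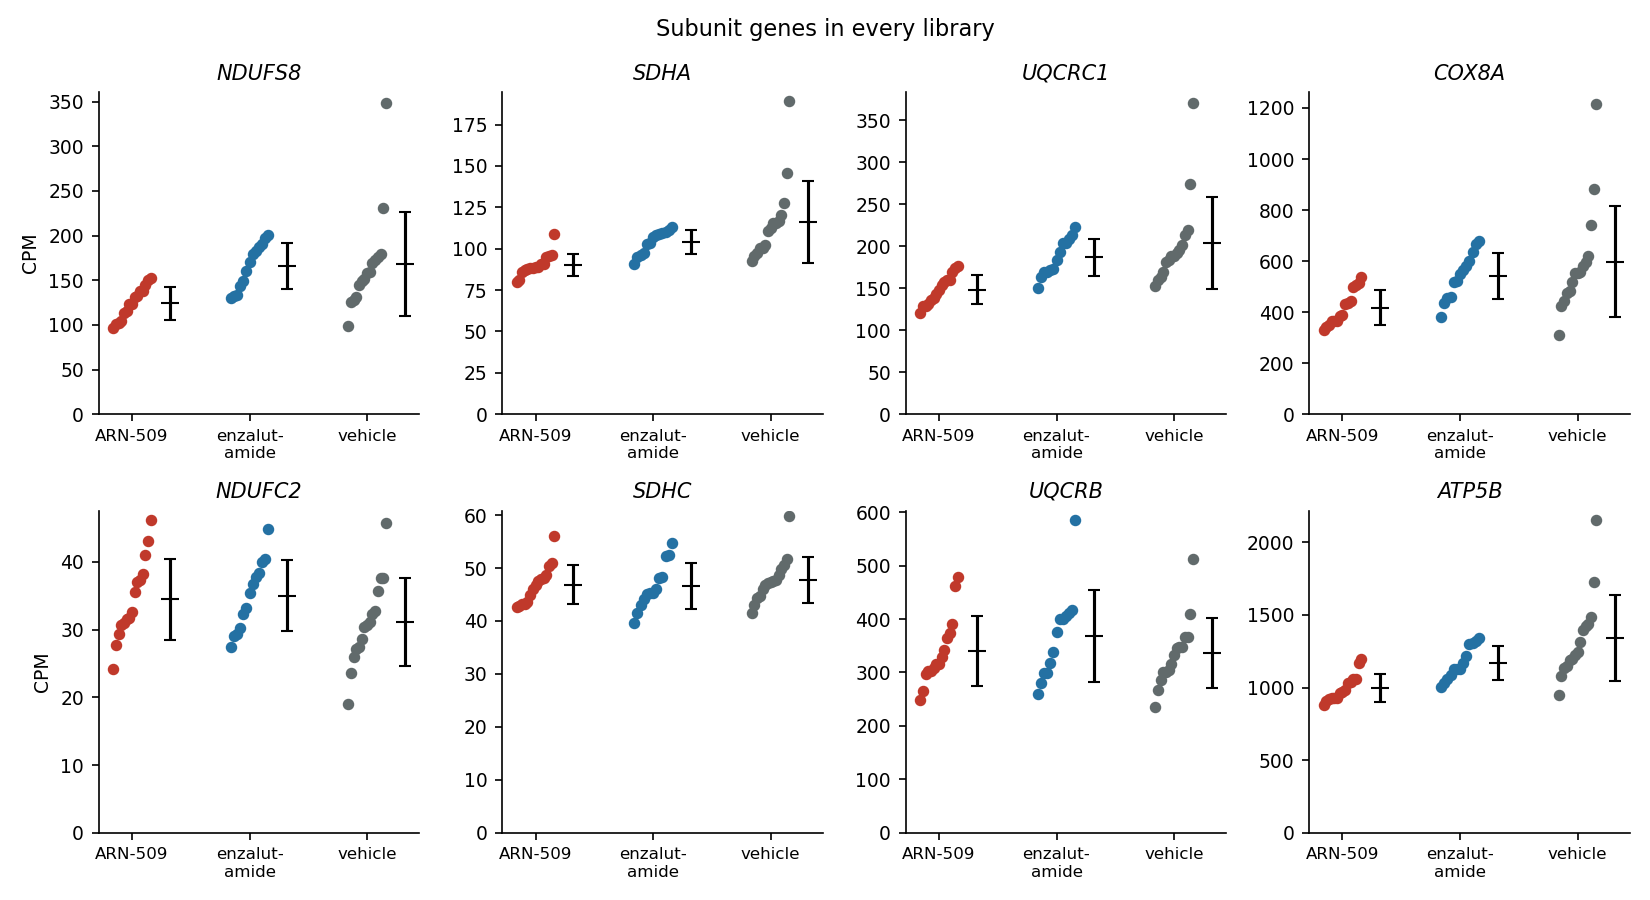
CPM of 8 members in each ARN-509 (n = 15), enzalutamide (n = 13) and vehicle (n = 15) library, drawn in rising order within an arm, with mean and SD at the right; the y axes start at 0. NDUFS8, SDHA, UQCRC1, COX8A and ATP5B are lower in ARN-509 tumors with overlapping arms, whereas NDUFC2, SDHC and UQCRB did not pass the test; vehicle 8 is the highest and vehicle 10 the lowest vehicle library in all 8 panels.

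Complex IV showed the lowest median, -0.35, with 10 of 14 tested members lower under ARN-509 and 0 higher. COX8A had 391 CPM in ARN-509 (329 to 538), 550 in enzalutamide (381 to 678) and 554 in vehicle (312 to 1217), and fell by 0.52 (SE 0.12, adjusted p = 0.0012). All 15 ARN-509 libraries lay under the vehicle median. COX6B1, a subunit on the side of the intermembrane space, fell by 0.44 (SE 0.11, adjusted p = 0.0021) and COX6C by 0.45 (SE 0.11, adjusted p = 0.0024). COX4I1, the subunit through which ATP inhibits the oxidase, had 94.8 CPM in ARN-509 (74.1 to 137), 126 in enzalutamide (88.4 to 145) and 127 in vehicle (69.9 to 236), a log2 fold change of -0.38 (adjusted p = 0.0055). COX5A and COX5B had log2 fold changes of -0.30 (adjusted p = 0.023) and -0.33 (adjusted p = 0.021), and each lost its call without vehicle 8 (adjusted p = 0.059 and 0.058). NDUFA4, named as a complex I subunit but known to belong to complex IV, fell by 0.25 (adjusted p = 0.039), and its call was lost in 12 of the 43 fits without a library. In enzalutamide tumors 8 of 14 were higher than in ARN-509 tumors, led by NDUFA4 (0.31, adjusted p = 0.018), COX5B (0.35, adjusted p = 0.020) and COX7C (0.32, adjusted p = 0.020). With the trends removed 3 of 14 were, and COX5B lost its call (0.18, adjusted p = 0.086).

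The tissue-specific forms of complex IV subunits were at or near 0. COX6A2 and COX7B2 had 0 counts in 43 libraries, COX4I2 had 3 and COX8C had 20, whereas their widely expressed partners COX6A1, COX7B, COX4I1 and COX8A had 41946, 49399, 46153 and 204727. COX7A1, a form of heart and skeletal muscle, had 414 counts, a level of 1.32 CPM per kilobase in ARN-509, 1.15 in enzalutamide and 1.14 in vehicle tumors, against 100.0, 120.1 and 123 for COX7A2. COX7A2 missed the threshold under ARN-509 (-0.30, adjusted p = 0.055), and COX7A2L, a relative linked to respiratory supercomplexes, had -0.09 (adjusted p = 0.42). COX6A1 fell by 0.46 (adjusted p = 0.0046) and COX7B by 0.29 (adjusted p = 0.034), a call lost in 7 of the 43 fits without a library. COX6B2, the testis partner of COX6B1, had the lowest log2 fold change of all members, -0.66 (SE 0.24, adjusted p = 0.030), from 459 counts in all. Its CPM was 0.73 in ARN-509 (0.38 to 2.02), 0.85 in enzalutamide (0.46 to 2.02) and 1.31 in vehicle (0.55 to 2.57). It lost its call in 6 of the 43 fits without a library and with the GC and length trends removed (-0.53, adjusted p = 0.076), and for enzalutamide it stood at -0.58 (adjusted p = 0.13). NDUFA4L2, a paralog of NDUFA4 induced in hypoxia, varied most, from 0.82 to 5.17 CPM in ARN-509, 0.73 to 5.20 in enzalutamide and 0.67 to 10.8 in vehicle tumors, and did not pass (-0.48, adjusted p = 0.25).

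Complex V had 9 of 15 tested members lower under ARN-509, 0 higher and a median of -0.25. In the catalytic F1 part 3 of 5 fell, and in the membrane part and stalk 6 of 10. ATP5B had 967 CPM in ARN-509 (880 to 1199), 1125 in enzalutamide (1006 to 1341) and 1244 in vehicle (947 to 2155), and all 15 ARN-509 libraries lay under the vehicle median. Its log2 fold change of -0.43 (SE 0.08, adjusted p = 4.7e-05) had the smallest p of all members. ATP5A1, the alpha subunit that alternates with beta, fell by 0.23 (SE 0.06, adjusted p = 0.0031). ATP5C1, the rotating gamma subunit that links the catalytic head to the membrane ring, had 148 CPM in ARN-509 (131 to 178), 159 in enzalutamide (132 to 211) and 162 in vehicle (125 to 242) and did not pass (-0.15, adjusted p = 0.12). ATP5J2, the f subunit of the membrane part, fell most in complex V, by 0.56 (SE 0.12, adjusted p = 0.00037), with 47.6 CPM in ARN-509 (35.3 to 55.9), 63.1 in enzalutamide (43.1 to 70.1) and 68.1 in vehicle (35.0 to 135). ATP5J, a stalk subunit, had the highest value of complex V, -0.11 (adjusted p = 0.34). ATP5G1, ATP5G2 and ATP5G3 encode the same mature c subunit of the proton-driven ring, and they fell by 0.45 (adjusted p = 0.0012), 0.29 (adjusted p = 0.010) and 0.31 (adjusted p = 0.014). ATP5G2 was the most abundant of the 3, at 345 ± 45.9 CPM in ARN-509 (SD, n = 15), 438 ± 66.2 in enzalutamide (SD, n = 13) and 422 ± 96.4 in vehicle tumors (SD, n = 15). Enzalutamide exceeded ARN-509 in 7 of 15, with the smallest p-values for ATP5G2 (0.34, adjusted p = 0.0071), ATP5G1 (0.37, adjusted p = 0.012) and ATP5J2 (0.36, adjusted p = 0.025). With the trends removed 2 of 15 were higher, and these 3 genes lost their calls (0.10, 0.17 and 0.18, adjusted p = 0.11, 0.072 and 0.10).

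Of the 5 members that match by name without being subunits, ATP5J2-PTCD1 had 0 counts and NDUFC2-KCTD14 had 3, and both overlap their parent genes. ATP5S and ATP5SL, now DMAC2L and DMAC2, had log2 fold changes of 0.12 (adjusted p = 0.17) and -0.16 (adjusted p = 0.043) under ARN-509, and the call of ATP5SL was lost in 17 of the 43 fits without a library. COX4NB, now EMC8 and part of a membrane insertion complex of the endoplasmic reticulum, had -0.17 (adjusted p = 0.18). Between the drugs COX4NB (0.40, adjusted p = 0.0059) and ATP5SL (0.28, adjusted p = 0.0036) were higher under enzalutamide, the second not with the GC and length trends removed (0.05, adjusted p = 0.60). ATP5L2, a copy of ATP5L, had 118 counts and was not tested.

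The subunit transcripts are short, with a median of 869.5 bases against 2542 for all genes tested, and their median GC content was 51.7% against 49.9%. Fold changes depended on both properties over the whole transcriptome. Across all 12959 genes with values, Spearman's rho of the ARN-509 minus vehicle fold change was -0.40 with GC content and 0.27 with length, and across the 82 tested members it was -0.63 and 0.14. These are descriptions across genes of the same libraries, which are not independent replicates. Among members with GC content at or above their median 35 of 41 fell, with a median of -0.36, and among those below it 16 of 41 fell, with a median of -0.22. In each range of GC content the members lay below the genes of that range. Between 40 and 45% GC the median of 17 members was -0.16 and that of 2646 genes was 0.10, and above 60% the median of 10 members was -0.41 and that of 2345 genes was -0.13. Likewise, under 750 bases the median of 32 members was -0.30 and that of 636 genes was -0.12.

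When the trend of each library with GC content and length was removed before the test, 45 members fell under ARN-509 and 1 rose (ATP5S, log2 fold change 0.21, adjusted p = 0.023), with a median of -0.17. In that fit 15.5% of the 12959 genes were called lower and 12.8% higher. Of the 51 members called lower before, 36 were called again. ATP5G2 (-0.09, adjusted p = 0.076), COX5A (-0.11, adjusted p = 0.13), NDUFA3 (-0.13, adjusted p = 0.075) and UQCR10 (-0.14, adjusted p = 0.054) were among those that were not. The 2 GC classes then had near-equal counts, with 22 of 41 lower at or above the median and 23 of 41 below it. By complex, 18 of 36 members fell in complex I, 2 of 4 in complex II, 6 of 10 in complex III, 10 of 14 in complex IV and 9 of 15 in complex V. ATP5B (-0.36, adjusted p = 2.1e-05), ATP5J2 (-0.39, adjusted p = 4.2e-05), UQCRC1 (-0.30, adjusted p = 9.7e-05), NDUFV1 (-0.20, adjusted p = 0.00012) and SDHA (-0.28, adjusted p = 0.00012) had the smallest p-values of their complexes or of all members. SDHC and SDHD moved to 0.12 and 0.01, neither past the threshold. NDUFS1 (-0.15, adjusted p = 0.039) and ATP5C1 (-0.17, adjusted p = 0.018) were then called lower.

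The difference between the drugs depended most on this step. With the trends removed 14 members were higher under enzalutamide than under ARN-509, with a median of 0.14, and 11 of them were among the 47 called before. In that fit 3.65% of all genes were called higher and 4.32% lower. The 14 included NDUFS6 (adjusted p = 0.027), UQCRC2 (0.021), UQCRFS1 (0.045), COX7C (0.013) and NDUFA4 (0.018). Against vehicle 5 members fell under enzalutamide, and 0 rose, where 7.46% of all genes were called lower and 7.09% higher: NDUFB10 (-0.24, adjusted p = 0.0059), ATP5B (-0.21, adjusted p = 0.020), SDHA (-0.18, adjusted p = 0.022), NDUFS1 (-0.17, adjusted p = 0.035) and ATP5J2 (-0.21, adjusted p = 0.042). The slope of level on GC content had a median of -0.11 log2 units per 10% GC in ARN-509 libraries, 0.01 in enzalutamide libraries and -0.03 in vehicle libraries. The slope on length had medians of 0.05, -0.06 and -0.01 log2 units per doubling. Whether these slopes arose in the tumors or in library preparation was not tested.

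**Figure D5:**
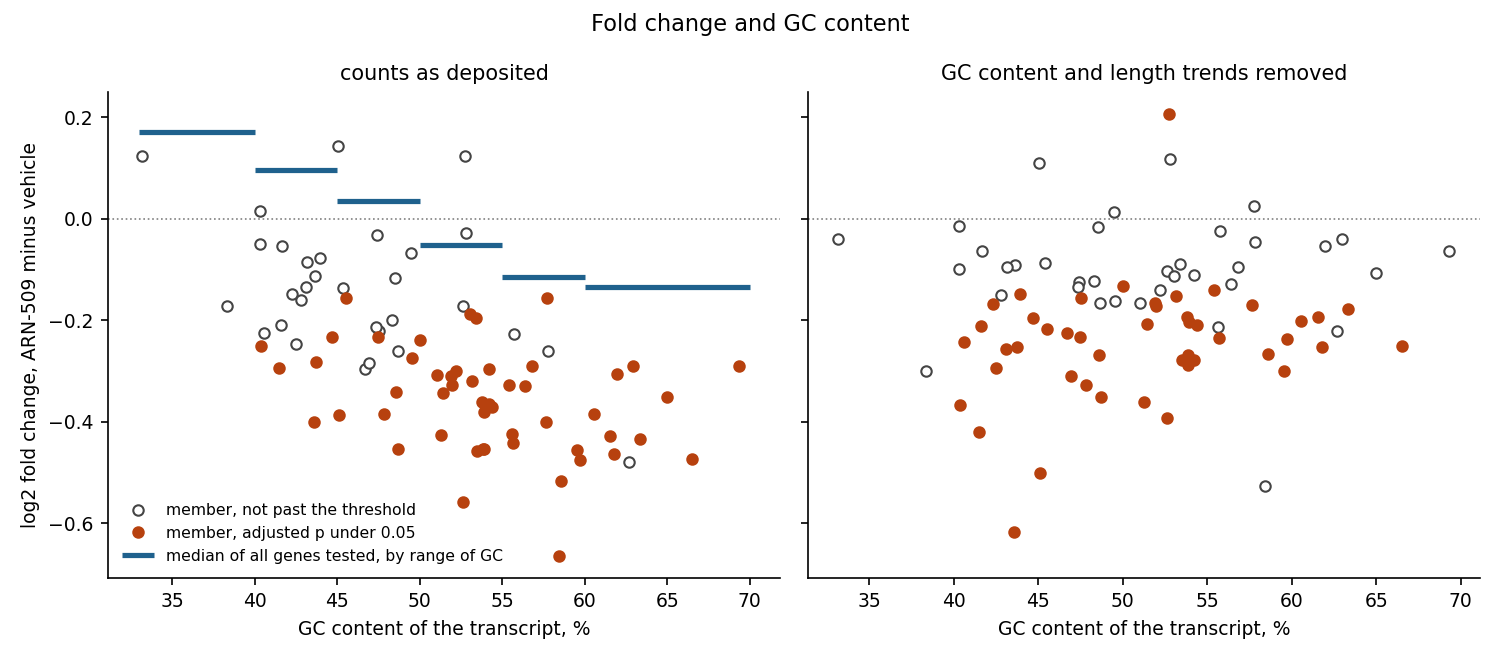
Log2 fold change of tested members for ARN-509 minus vehicle against the GC content of the transcript, from the counts as deposited (left, with the median of all genes tested in each range of GC as a blue bar) and with the GC and length trends of each library removed (right); filled points passed the threshold. On the left 51 members were lower and values fall with GC content, and on the right 45 were lower and 1 was higher.

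Genes around the chain were counted in lists of their own. Of 21 genes of pyruvate entry and the citric acid cycle, 13 fell under ARN-509 and 0 rose (median -0.21). They include PC, which makes oxaloacetate from pyruvate (log2 fold change -0.38, adjusted p = 0.00015), FH, fumarase (-0.38, adjusted p = 0.00019), and MDH2, the mitochondrial malate dehydrogenase (-0.33, adjusted p = 0.00026). Of 36 assembly factors 9 fell and 2 rose (median -0.10), with ECSIT, a complex I assembly factor, at -0.39 (adjusted p = 0.00023), TACO1, a translational activator of COX1, at -0.37 (adjusted p = 0.00036) and COX16 at -0.47 (adjusted p = 0.0026). Of 10 genes of coenzyme Q synthesis 3 fell (COQ6, COQ9 and PDSS1) and 0 rose. Of 8 carriers 3 fell and 0 rose, among them SLC25A5, an ADP/ATP exchanger (-0.30, adjusted p = 0.0037), and SLC25A3, the phosphate carrier (-0.29, adjusted p = 0.0037). The other was VDAC1, the outer membrane channel (-0.19, adjusted p = 0.036). Of 16 regulators of mitochondrial biogenesis 2 fell and 0 rose (median -0.03), where 16.1% of all genes tested were called lower. The 2 are the orphan nuclear receptors ESRRA and ESRRG. ESRRA had 150.4 CPM in ARN-509, 188 in enzalutamide and 197 in vehicle tumors (mean; log2 fold change -0.39, adjusted p = 0.00050), and ESRRG had 2.12, 1.35 and 5.99 CPM (-1.46, adjusted p = 5.9e-05).

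In the comparison of enzalutamide with vehicle these lists changed little in count. The citric acid cycle list had 1 of 21 lower, coenzyme Q synthesis 1 of 10 higher, assembly factors and carriers 0, and regulators 2 of 16 lower, including ESRRG (-2.10, adjusted p = 7.8e-07). ESRRA did not pass there (-0.07, adjusted p = 0.69). Enzalutamide exceeded ARN-509 in 9 of 21 citric acid cycle genes, 8 of 36 assembly factors (1 lower), 5 of 10 coenzyme Q genes, 1 of 8 carriers and 2 of 16 regulators (4 lower). ESRRA was among the 2 higher (0.32, adjusted p = 0.0080). GABPA, the DNA-binding subunit of GABP, was among the 4 lower (-0.55, adjusted p = 0.0047), at 79.9 CPM in ARN-509, 54.2 in enzalutamide and 68.3 in vehicle tumors on average. With the GC and length trends removed the counts higher under enzalutamide than under ARN-509 were 5 of 21 citric acid cycle genes, 2 of 36 assembly factors (0 lower), 1 of 10 coenzyme Q genes, 1 of 8 carriers and 1 of 16 regulators (2 lower), and ESRRA (0.13, adjusted p = 0.095) and GABPA (-0.20, adjusted p = 0.077) were not called. Under ARN-509 against vehicle 15 of 21 citric acid cycle genes, 6 of 36 assembly factors (2 higher), 3 of 10 coenzyme Q genes, 4 of 8 carriers and 2 of 16 regulators were then lower. The background shares given above for each comparison and fit apply to these lists.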

How the data were processed

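RNA-seq of 44 VCaP xenograft tumors was analysed, and 43 libraries were used. The deposited table holds whole-number counts per gene symbol, not normalized by the authors. Unstranded TruSeq RNA v2 libraries were sequenced, per the labels' protocols. The tools listed in the submitters' processing notes are HTSeq 0.6.1, TopHat2 2.1.0, Picard 1.77 and bcl2fastq 1.8.4, with hg19 as the build. How mouse reads were handled, the annotation and the settings were not given in the sources used here. Any reads shared with pseudogenes, paralogs or overlapping genes could be left out of the counts or assigned to the wrong gene, which was not tested. Arms were taken from the sample titles. No 2 libraries of an arm held the same values.

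The members and gene lists were chosen with earlier results of these data known. Counts were fitted in edgeR 4.0.16 (R 4.3.3; TMM, filterByExpr by arm, robust quasi-likelihood, arm as the only term, 1 fit), with Benjamini-Hochberg adjustment over 13520 genes and a threshold of 0.05. Every adjusted p printed is from this test unless another is named, and the SE is the absolute log2 fold change over the square root of F. CPM are scaled to the TMM-adjusted library total in the text and figures. GC content and length came from GENCODE v29 (GRCh38), 1 coding transcript per gene matched by symbol, for 95.85% of tested genes and all 82 tested members; no coordinates of that build were joined to the counts. Trends of each library with GC content and length were removed as spline offsets with 4 degrees of freedom each. Named genes are core subunits, isoform sets, the 3 smallest p-values per complex and comparison, the highest and lowest fold change per complex, members against the majority, members that are no subunit or were untested, and up to 3 genes per list with the smallest p. Of the genes this rule names 1 is not reported here. GABPA, NDUFA5, and the members named after the trend removal were chosen after their values were seen. Alternatives were DESeq2 1.42.0 and its size factors, limma 3.58.1 voom with quality weights, library totals, other filters, only the 2 arms compared, a replicate block, thinning to 3377450 counts, removal of the GC or length trend, all 44 libraries and leaving out each library.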

Additional observations from a re-analysis of the deposited data

How the results depend on the processing

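The count of members lower under ARN-509 than under vehicle stayed between 36 (library totals) and 54 (DESeq2) in 15 other settings, and its median between -0.30 and -0.17 log2. With library totals 30.9% and by DESeq2 32.4% of all genes were called in either direction, against 30.8% in the main fit. The count under enzalutamide, 0, became 3 by limma voom, 5 with the GC and length trends removed, 3 with the length trend removed, and 3 with both removed in all 44 libraries, the last chosen after seeing the data. Of all genes 18.9%, 14.6%, 12% and 12.3% were called in these fits, against 10.8% in the main fit. Between enzalutamide and ARN-509 the count of members called, 47, became 14 with both trends removed and 23 with the GC trend removed. It became 30 with the length trend removed (29 higher under enzalutamide and 1 lower) and 8 with both removed in all 44 libraries. In the main fit and the other settings named for this comparison, all members called were higher under enzalutamide. The cause of these changes in count was not tested. Without each library in turn the counts were 34 to 59 (ARN-509 minus vehicle), 0 to 1 (enzalutamide minus vehicle) and 28 to 58 (enzalutamide minus ARN-509), and the medians -0.33 to -0.20, -0.05 to 0.05 and 0.25 to 0.30. A sign change was counted for a member where either fit called it. ATP5SL turned to 0.0247 for ARN-509 with the trends removed and to 0.0248 in all 44 libraries. ATP5G3 turned to 3.90 for enzalutamide with the trends removed in all 44 libraries, where enzalutamide 4 had 80142 counts in all.

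The labels do not say whether the replicate numbers pair samples. Same-numbered libraries had median correlations of 0.06 (-0.505 to 0.728), 0.02 (-0.468 to 0.734) and 0.03 (-0.407 to 0.504) in the 3 comparisons. A library correlated best with its own number in 3 of 15, 2 of 13 and 1 of 13 pairs. With the replicate block 50 members were lower under ARN-509 than under vehicle, 0 changed under enzalutamide, and 47 were higher under enzalutamide than under ARN-509. Of all genes 30.2%, 8.85% and 24.3% were called in these comparisons. COX6B2 and NDUFA4L2 were tested at levels of a few CPM or less on average, and 8 members had too few counts for a test.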
